A study of Mus musculus with 13 samples.

Results

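Metallothioneins and zinc transporters were described in injured mouse hamstring muscle as 10 genes chosen by symbol, all of them found among the 14911 genes measured. They were the metallothioneins Mt1 and Mt2, the transcription factor Mtf1, the exporters and vesicle loaders Slc30a1, Slc30a4 and Slc30a5, and the importers Slc39a1, Slc39a8, Slc39a10 and Slc39a14. Messenger RNA came from whole hamstring muscle of female C57BL/6 mice, taken at day 4 after cardiotoxin, which kills muscle fibres and comes from cobra venom, had been injected into that muscle at 0.32 mg/kg. The dexamethasone group held 9 mice given dexamethasone, a synthetic glucocorticoid, once daily by intraperitoneal injection at 10 mg/kg, and the saline group held 4 mice given saline in its place. Both groups carried the cardiotoxin injury, no uninjured muscle was compared, and each library came from 1 mouse whose age the labels do not state. The submitters report that bone had formed in the injured muscle of every dexamethasone mouse and that they left out a saline mouse in which bone had formed. Effects of the drug and of the bone therefore cannot be told apart here.

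Metallothioneins are small cysteine-rich proteins that hold zinc and copper ions and react with oxidants. MTF1 is a zinc sensor that binds metal response elements in the promoters of Mt1, Mt2 and Slc30a1 when free zinc rises, and in mice it holds back Slc39a10. Glucocorticoids and cytokines of the interleukin-6 family also raise metallothionein transcripts in other tissues such as liver. Proteins of the Slc30 family (ZnT) move zinc out of the cytosol, across the cell membrane or into vesicles and the Golgi, and proteins of the Slc39 family (ZIP) move it into the cytosol. Slc39a14 and Slc39a8 are close relatives that also carry iron and manganese.

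Promoter bases are shown for 4 members to place the metal response element core, searched on both strands as TGCACNC or TGCGCNC in the 250 bases before the start in a RefSeq promoter table (GRCm38.p6, the build also called mm10). Capitals mark each match in the following sequences, which run 5′ to 3′ on the gene's strand.
Mt2, chr8:94172368-94172617, plus strand: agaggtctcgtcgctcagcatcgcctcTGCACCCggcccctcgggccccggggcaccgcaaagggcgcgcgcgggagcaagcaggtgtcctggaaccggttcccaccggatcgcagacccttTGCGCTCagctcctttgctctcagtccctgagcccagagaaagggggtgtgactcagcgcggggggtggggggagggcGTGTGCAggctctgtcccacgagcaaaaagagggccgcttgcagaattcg
Slc30a4, chr2:122702664-122702913, minus strand: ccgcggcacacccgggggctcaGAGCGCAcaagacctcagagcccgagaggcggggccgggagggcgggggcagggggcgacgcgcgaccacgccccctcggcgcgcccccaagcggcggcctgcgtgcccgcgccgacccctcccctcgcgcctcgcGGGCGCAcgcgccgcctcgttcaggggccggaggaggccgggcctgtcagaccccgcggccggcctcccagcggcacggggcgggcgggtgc
Mt1, chr8:94179055-94179084, plus strand: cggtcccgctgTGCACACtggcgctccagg
Slc30a1, chr1:191906727-191906756, plus strand: acgggggttccGAGTGCAaagcaaagtttt

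The table held 11 windows for 9 of the 10 members, and Slc39a14 was the member not matched. Mt2 had 3 matches, at positions -223, -128 and -50 counted from the start, the last on the opposite strand. Of 32851 promoter windows of the same length, 21.4% held at least 1 match and 1.26% held 3 or more. Slc30a4 had 2 matches, and Mt1, Slc30a1, Slc30a5 and 1 of the 2 windows of Slc39a8 had 1 each. No match lay in the windows of Mtf1, Slc39a1 or Slc39a10, which says only that these letters are not in those windows. The annotation GENCODE M21 places other starts 122 and 152 bases further on for Mt1 and 46 and 242 bases further on for Mt2. Positions counted from those starts would differ. The bases directly before those starts, back to the start used here, were not searched, so the match counts of Mt1 and Mt2 cannot be compared. The cores of Mt1, Slc30a1, Slc30a5 and Slc39a8 lie inside the gene spans given below, which begin upstream of the start used. A core of the antioxidant response element, TGACNNNGC, began at position -79 of Mt2, -82 of Slc30a1, -63 of Slc39a1 and -35 of 1 window of Slc39a8 (10.2% of windows). The inner letters of the glucocorticoid response element, ACANNNTGT, were found at -92 of Mt1 and -192 of Slc30a5 (5.84% of windows). The full palindromic element was in no window of these genes, but it lay in only 0.00913% of all windows, so its absence says little. The repeat TTCNNNGAA, which STAT factors can bind, lay at -82 of Slc39a10 (7.02% of windows), and the letters CACGTG at -61 of Slc30a5 and -71 of a window of Slc39a8 (6.02% of windows). These matches did not overlap the metal response element cores. A letter match is not evidence of binding.

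The libraries held 28021111 to 34942266 reads over the measured genes with dexamethasone and 25531487 to 32537345 with saline. Values are log2 CPM (counts scaled by a normalised library size), in which a difference of 1 is a doubling, and fold changes set the dexamethasone mean against the saline mean. The normalised size was 0.8765 to 1.001 times the reads with saline and 0.9896 to 1.101 times with dexamethasone. Differences were tested with limma, a linear model fitted across all genes, and called at a Benjamini-Hochberg adjusted p under 0.05. Dexamethasone library 4 stood apart within its group. Of 8 genes of the glucocorticoid receptor and its common targets, 6 were highest in that library among the 9. The share of all genes that were highest in it was not counted. Fkbp5, a receptor cochaperone, reached 7.92 log2 CPM in it, beside 6.12 ± 0.05 in the remaining 8 (SD). Results that rest on library 4 are given with and without it. The mature fibre genes that define the tissue were abundant in both groups, at 97590 to 146000 summed CPM over 15 markers with dexamethasone and 151000 to 221500 with saline, ranges that did not overlap. In bulk muscle, fewer cells of a type and less RNA per cell cannot be told apart.

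With dexamethasone, 9 of the 10 genes rose and 0 fell, against 25.2% of all genes that rose and 22.9% that fell. The 10 genes, like the gene lists below, were chosen with earlier results of these data known, so such counts are no independent evidence. Both metallothioneins and the importer Slc39a14 rose at least 2-fold, the importer Slc39a8 rose less, and 5 other transporters rose by under 0.5 on the log2 scale. Mtf1, which encodes the metal-sensing factor, was not called. The median log2 fold change of the 10 was 0.37, against 0.007 over all genes. In 7 of the 10, every dexamethasone library lay above every saline library, against 12.9% of all genes in that direction and 25.8% in either direction. All 10 had a mean of at least 1 log2 CPM over the 13 libraries, but Slc39a8 averaged 0.97 in the saline libraries alone.

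**Figure D1:**
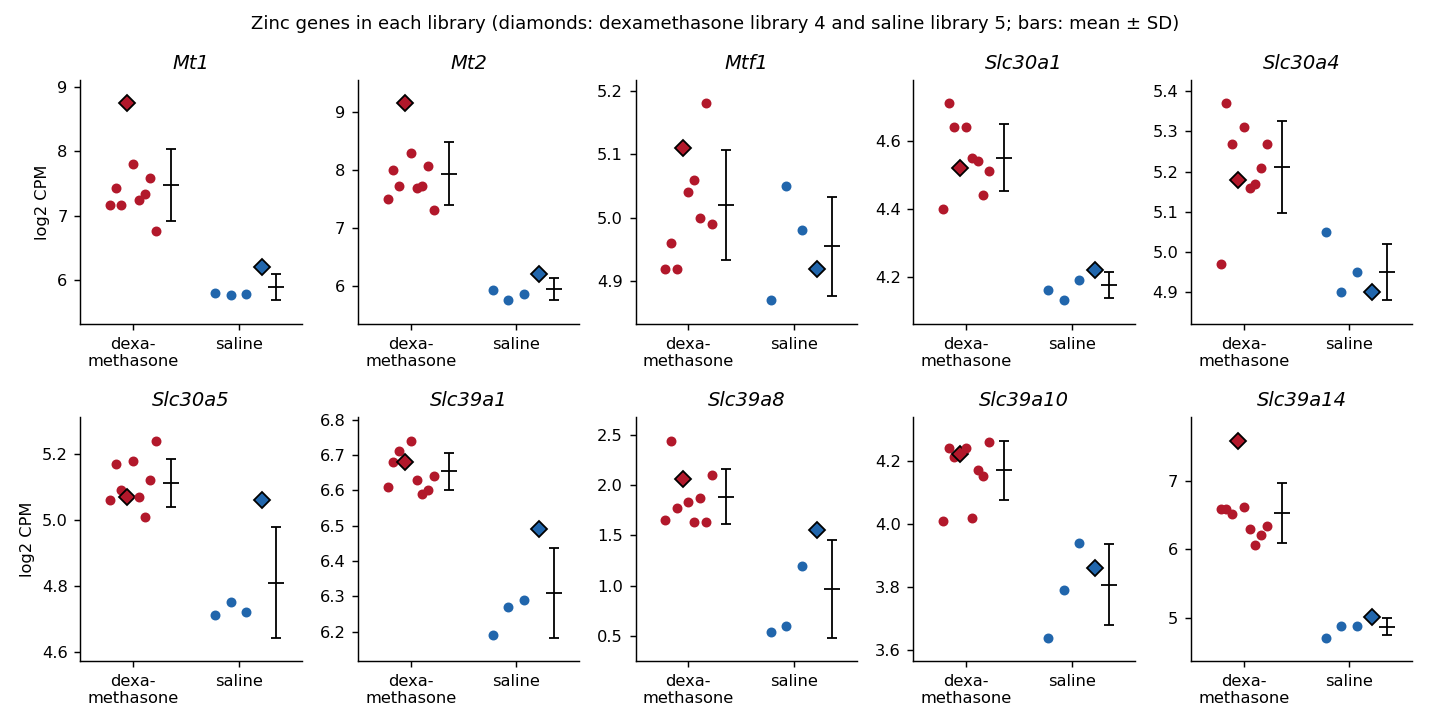
Level of each gene in each library in log2 CPM, with dexamethasone libraries (red, n = 9) left of saline libraries (blue, n = 4), the mean and SD beside each group, and an axis of its own for each gene that does not start at 0. Mt1, Mt2 and Slc39a14 show the widest gaps, and the red diamond, dexamethasone library 4, is highest in those 3 panels.

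Mt2 (Entrez 17750, mm10 chromosome 8, 94172618 to 94173567) ranged from 7.31 to 9.15 log2 CPM over the dexamethasone libraries, with a median of 7.73, against 5.94, 5.77, 5.86 and 6.21 in saline libraries 1, 2, 3 and 5. Every dexamethasone library was above every saline library, and library 4 was the highest. Mt2 rose 3.99-fold, a log2 fold change of 2.0 ± 0.24 (SE; limma adjusted p 9.07e-06), the 57th largest rise among all genes. Without library 4 the log2 fold change was 1.85.

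Mt1 (Entrez 17748, chromosome 8, 94178883 to 94180327) lies 5315 bases beyond Mt2 on the same strand. It ranged from 6.76 to 8.75 log2 CPM with dexamethasone, with a median of 7.33, against 5.80, 5.77, 5.78 and 6.20 in saline libraries 1, 2, 3 and 5. Again the groups did not overlap, with saline library 5 above the other 3 saline libraries and dexamethasone library 4 above the other 8. Mt1 rose 3.00-fold, a log2 fold change of 1.58 ± 0.25 (SE; limma adjusted p 9.77e-05), and 1.43 without library 4. Annotated transcripts of Mt1 and Mt2 shared 0 stretches of 50 bases, so reads of that length or longer from their exons belong to 1 of the 2 genes.

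Mt2 rose more than Mt1. Within a library, Mt2 exceeded Mt1 by 0.47 ± 0.08 log2 units with dexamethasone and by 0.06 ± 0.07 with saline (SD, n = 9 and 4). That difference of 0.41 had an exact two-sided permutation p of 0.0014, the smallest that 9 against 4 libraries can give, and 0.0042 adjusted over 3 such within-library comparisons. Mt2 made up 55.9% to 59.9% of the summed CPM of the pair in dexamethasone libraries and 49.9% to 52.3% in saline libraries, with no overlap. The sum itself was 456 ± 219 CPM with dexamethasone and 122 ± 17.4 CPM with saline (SD, n = 9 and 4). Library 4 held 1001 CPM, and the other 8 dexamethasone libraries 388 ± 84.7 CPM (SD).

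Both genes also varied together within the dexamethasone group. Across its 9 libraries Mt1 and Mt2 had a Pearson r of 0.989 (exact permutation p 1.93e-05, adjusted 5.79e-05 over 3 relations) and a Spearman rho of 0.95 (exact permutation p 0.000353, adjusted 0.00106). Without libraries 4 and 9, those farthest from the median of Mt1, r was 0.953 over 7 libraries (exact permutation p 0.00139). The libraries differ in depth and share 1 scaling, which a correlation of log2 CPM carries too. Among 12279 genes of at least 1 log2 CPM on average, those with the highest r to Mt2 over the 9 libraries were Mt1, Mid1ip1, Msln, Fam102b and Tjap1, with r of 0.989, 0.974, 0.969, 0.958 and 0.953. For Mt1 they were Mt2, Mid1ip1, Rnase4, Snap29 and Tjap1, with r of 0.989, 0.964, 0.956, 0.946 and 0.946. Library 4 shaped these lists, since over the other 8 libraries Fcgr2b came first for Mt2 (r of 0.974) and Mt1 second (r of 0.965), while Mt2 still came first for Mt1.

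Slc39a14 (Entrez 213053, chromosome 14, 70303467 to 70351452), which encodes the importer ZIP14, ranged from 6.06 to 7.58 log2 CPM with dexamethasone, with a median of 6.51. The saline libraries 1, 2, 3 and 5 stood at 4.71, 4.88, 4.88 and 5.01. All dexamethasone libraries lay more than 1 log2 unit above the highest saline library. The gene rose 3.16-fold, a log2 fold change of 1.66 ± 0.19 (SE; limma adjusted p 6.80e-06), and 1.53 without library 4, which stood at 7.58 against 6.40 ± 0.21 in the other 8 (SD). Its r with Mt1 was 0.80 and with Mt2 0.804 across the 9 dexamethasone libraries (exact permutation p 0.0403 and 0.0328, both 0.0403 adjusted over 3 relations). Spearman rho was 0.40 with Mt1 and 0.50 with Mt2 (exact permutation p 0.291 and 0.178; adjusted 0.291 and 0.266). Both relations rested on library 4. Without libraries 4 and 9, r with Mt1 was 0.0999 over 7 libraries, and without libraries 4 and 5, r with Mt2 was -0.076 over 7 libraries (exact permutation p 0.832 and 0.856).

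**Figure D2:**
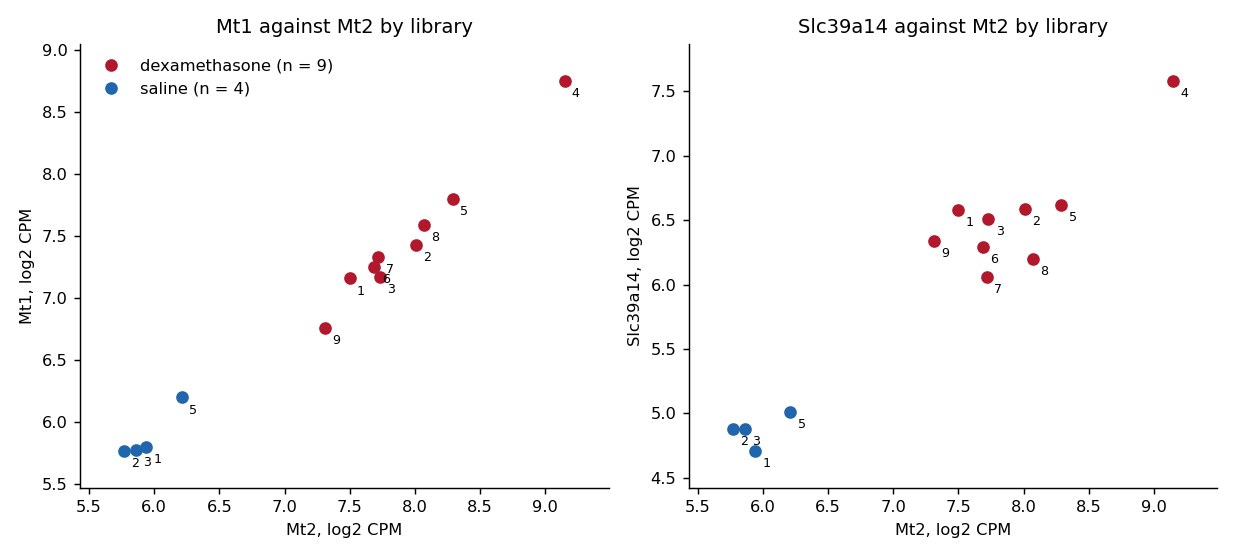
Mt1 (left) and Slc39a14 (right) against Mt2, each point a library numbered as in the labels, both axes in log2 CPM, with 9 dexamethasone libraries in red and 4 saline libraries in blue. Mt1 follows Mt2 through the dexamethasone libraries (r of 0.989), whereas Slc39a14 does so through library 4 at the upper right.

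Slc39a8 (Entrez 67547, chromosome 3, 135816882 to 135888572), which encodes the related importer ZIP8, was the lowest of the 10 genes, with 90 to 181 reads per dexamethasone library and 36 to 95 per saline library. It ranged from 1.63 to 2.44 log2 CPM with dexamethasone, with a median of 1.83, against 0.54, 0.60, 1.20 and 1.55 in saline libraries 1, 2, 3 and 5. The saline libraries were widely spread, and saline library 5 came within 0.08 log2 units of the lowest dexamethasone library. Slc39a8 rose 1.88-fold, a log2 fold change of 0.91 ± 0.19 (SE; limma adjusted p 0.00103), but with the mean of the mature fibre genes as a covariate it was not called, at 0.24 (limma adjusted p 0.509). Slc30a1, Slc30a4, Slc30a5, Slc39a1 and Slc39a10 lost their calls in that fit too, and the covariate separates the groups. The excess of Slc39a14 over Slc39a8 within a library was 4.64 ± 0.43 log2 units with dexamethasone and 3.90 ± 0.39 with saline (SD, n = 9 and 4), a difference of 0.75 in the change of the 2 genes (exact permutation p 0.0182, adjusted p 0.021). This call ended without saline library 3, which also stood apart in neutrophil genes (difference 0.68, adjusted p 0.0636), or saline library 5 (difference 0.60, adjusted p 0.0727).

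The remaining importers moved less. Slc39a1 (Entrez 30791, chromosome 3, 90248190 to 90253613), which encodes ZIP1 of the cell membrane, ranged from 6.59 to 6.74 log2 CPM with dexamethasone, with a median of 6.64. It stood at 6.19, 6.27, 6.29 and 6.49 in saline libraries 1, 2, 3 and 5. The dexamethasone values were tightly grouped and all above saline, and the rise was 1.27-fold (log2 fold change 0.34 ± 0.05, SE; limma adjusted p 6.25e-05). Slc39a10 (Entrez 227059, chromosome 1, 46807544 to 46925776), the importer that MTF1 holds back in mice, ranged from 4.01 to 4.26 log2 CPM with dexamethasone, with a median of 4.21, against 3.64, 3.79, 3.94 and 3.86 in the same saline libraries. Its groups did not overlap, and it rose 1.28-fold (log2 fold change 0.36 ± 0.07, SE; limma adjusted p 0.00046).

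All 3 zinc exporters and vesicle loaders rose by 1.20-fold to 1.30-fold. Slc30a1 (Entrez 22782, chromosome 1, 191906697 to 191913248) encodes ZnT1, which moves zinc out of the cell, and ranged from 4.40 to 4.71 log2 CPM with dexamethasone, with a median of 4.54. Saline libraries 1, 2, 3 and 5 held 4.16, 4.13, 4.19 and 4.22 log2 CPM, all below the lowest dexamethasone library. The rise was 1.30-fold (log2 fold change 0.37 ± 0.06, SE; limma adjusted p 0.00011). Slc30a4 (Entrez 22785, chromosome 2, 122681233 to 122702663) encodes ZnT4, which loads vesicles and is mutated in lethal milk mice. It ranged from 4.97 to 5.37 log2 CPM with dexamethasone, with a median of 5.21, against 5.05, 4.90, 4.95 and 4.90 with saline. In 8 of 9 dexamethasone libraries it exceeded every saline library, and it rose 1.20-fold (limma adjusted p 0.00285). Slc30a5 (Entrez 69048, chromosome 13, 100802645 to 100833480) encodes ZnT5 of the Golgi and secretory pathway and ranged from 5.01 to 5.24 log2 CPM with dexamethasone, with a median of 5.09. Saline libraries 1, 2, 3 and 5 held 4.71, 4.75, 4.72 and 5.06 log2 CPM. Only saline library 5 reached into the dexamethasone range, 7 of 9 dexamethasone libraries lay above it, and Slc30a5 rose 1.23-fold (limma adjusted p 0.00118). Within a library, Slc30a4 exceeded Slc30a1 by 0.66 ± 0.07 log2 units with dexamethasone and by 0.78 ± 0.08 with saline (SD, n = 9 and 4), a difference of -0.11 (exact permutation p 0.021, adjusted p 0.021). Without saline library 1 that difference was -0.073 (adjusted p 0.10).

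Mtf1 (Entrez 17764, chromosome 4, 124802549 to 124849800) was the gene of the 10 that was not called. It ranged from 4.92 to 5.18 log2 CPM with dexamethasone, with a median of 5.00, against 4.87, 5.05, 4.98 and 4.92 in saline libraries 1, 2, 3 and 5. The groups overlapped in part, with 3 of 9 dexamethasone libraries above every saline library and saline library 1 below every dexamethasone library. Its log2 fold change was 0.065 (95% interval -0.054 to 0.18; limma adjusted p 0.355). Transcript level does not measure the activity of the factor.

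**Figure D3:**
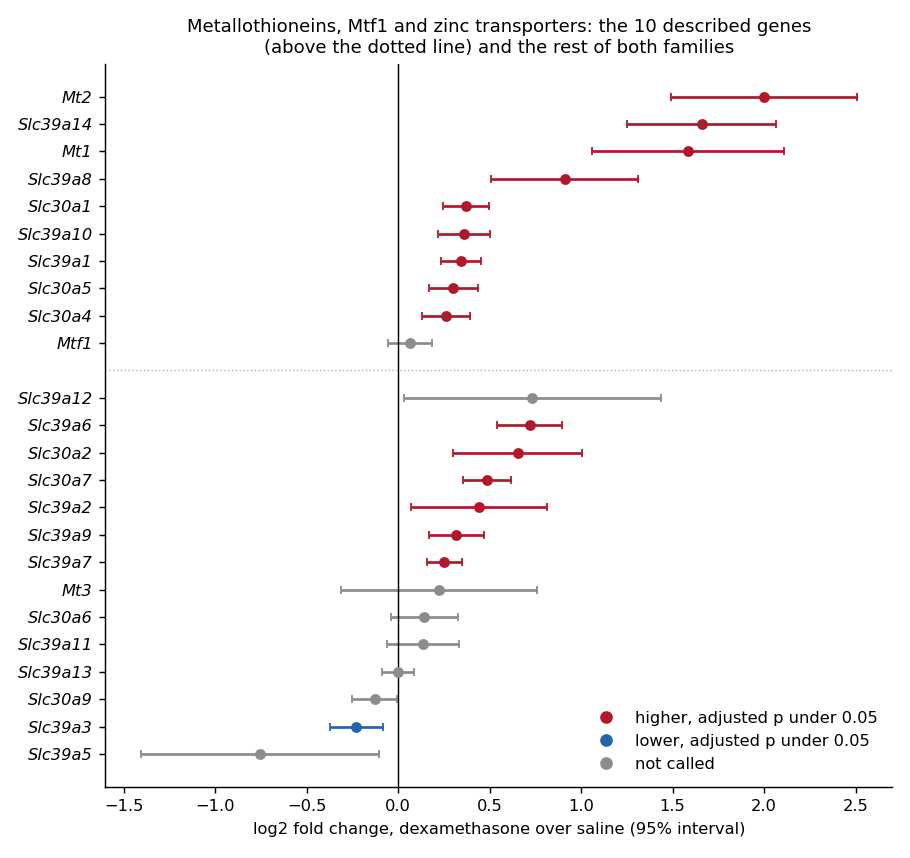
Log2 fold change of dexamethasone over saline with its 95% interval for the 10 genes (above the dotted line) and for Mt3 and 13 further zinc transporters (below it), red where higher and blue where lower at an adjusted p under 0.05. Mt2, Slc39a14 and Mt1 lie at 1.58 to 2.0, most other called genes under 0.75, and Mtf1 spans 0.

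Levels were set side by side per length, as CPM per kilobase of all annotated exons (GENCODE M21). With dexamethasone the order was Mt2 (449 ± 211), Mt1 (154 ± 76.6), Slc39a1 (42.6 ± 1.55), Slc39a14 (9.19 ± 3.52), Slc30a4 (6.79 ± 0.524), Slc30a5 (4.75 ± 0.241), Slc30a1 (4.47 ± 0.317), Mtf1 (3.65 ± 0.23), Slc39a10 (2.96 ± 0.188) and Slc39a8 (0.49 ± 0.0998; SD, n = 9). Slc39a14 and Slc30a4 in that order, and Slc30a5 and Slc30a1, differed by less than their SDs together. In saline libraries Slc39a14 stood eighth, at 2.78 ± 0.229 CPM per kilobase, between Slc30a1 (3.45 ± 0.0903) and Slc39a10 (2.31 ± 0.204), and Slc30a5, Mtf1 and Slc30a1 also differed by less than their SDs together (3.87 ± 0.469, 3.49 ± 0.192 and 3.45 ± 0.0903; SD, n = 4). Summed exon length includes rarely used exons, at 1246 bases for Mt1 and 588 for Mt2, and so understates genes with long minor transcripts.

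Other members of both families gave mixed results. Of 18 further zinc transporters 13 were measured, of which 6 rose and 1 fell, with a median log2 fold change of 0.25. With all libraries 53.8% were called, against 48.1% of all genes. Without dexamethasone library 4 the counts were 5 and 1, since Slc39a2 lost its call (limma adjusted p 0.047 with it and 0.0511 without). Slc39a6, an importer of the same branch as Slc39a10, rose 1.65-fold (log2 fold change 0.72; limma adjusted p 6.52e-06), and all 9 dexamethasone libraries lay above every saline library. Slc30a2, a vesicle loader, rose 1.57-fold (limma adjusted p 0.00429), and Slc30a7, a Golgi transporter, rose 1.40-fold (limma adjusted p 1.48e-05). The transporter that fell, named after its value was seen, was the importer Slc39a3, at a log2 fold change of -0.23 (limma adjusted p 0.0112). Mt3, the metallothionein best known from brain, had a log2 fold change of 0.22 ± 0.25 (SE; limma adjusted p 0.491) and stood at 5.06 log2 CPM in dexamethasone library 4, against 3.47 ± 0.21 in the other 8 (SD). Mt4 was not analysed here.

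Genes linked to MTF1 in earlier work on mouse and human cells were set beside the members, 4 of which are on that list. Of 12 measured, 9 rose and 1 fell, with a median of 0.38 and 83.3% called, against 48.1% of all genes. Of the 8 that are not among the 10 zinc genes, 5 rose and 1 fell, with a median of 0.36. Apart from Mt1 and Mt2, the largest change was in Hif1a, the oxygen-sensitive transcription factor, which rose 1.63-fold (limma adjusted p 4.41e-06). The gene that fell, named after its value was seen, was Selenow, a muscle selenoprotein, at a log2 fold change of -0.24 (limma adjusted p 0.0341).

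Copper handling genes split. Of 13 measured, 6 rose and 5 fell, with a median of 0.04 and 84.6% called, against 48.1% of all genes, and Mt1 and Mt2 were among the rises. Steap4, a metalloreductase, rose 1.94-fold (limma adjusted p 2.70e-06). The 5 that fell, named after their values were seen, were Steap3, another metalloreductase, Ccs, the copper chaperone of superoxide dismutase, Commd1, Cox17 and Sod1, at log2 fold changes of -0.38, -0.38, -0.36, -0.33 and -0.24.

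Most antioxidant genes linked to NRF2, the oxidant-sensing factor encoded by Nfe2l2, rose. Of 13 measured, 10 rose, 0 fell and 3 were not called, with a median of 0.38 and 76.9% called, against 48.1% of all genes called and 25.2% that rose. The 3, named after their values were seen, were Keap1, Gclm and Me1, at log2 fold changes of -0.018, 0.18 and 0.29. Hmox1, haem oxygenase, rose 2.15-fold, Slc7a11, the cystine importer, 2.0-fold and Txnrd1, thioredoxin reductase, 1.57-fold (limma adjusted p 0.000471, 0.0125 and 1.68e-07). Nfe2l2 itself rose 1.17-fold (limma adjusted p 0.00539).

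Genes of interleukin-6 family signalling and of STAT3, the factor that acts downstream of these cytokines, were read in the same way. The list mixes ligands and receptor subunits, such as Il6 and Il6ra, with feedback genes such as Socs3, so its count is not one of STAT3 targets. Of 10 measured, 9 rose and 0 fell, with a median of 1.05 and 90.0% called, against 48.1% of all genes called and 25.2% that rose. The gene not called, named after its value was seen, was the receptor subunit Il6ra, at 0.13 (limma adjusted p 0.358). Socs3, the feedback inhibitor, rose 4.73-fold, Il6 4.00-fold at a mean of -1.25 log2 CPM, Junb 3.36-fold and Stat3 1.34-fold (limma adjusted p 1.88e-08, 0.000246, 5.48e-07 and 0.000113). Several of these genes had been seen to rise before this list was drawn up, so its count is no independent evidence.

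On the list of the glucocorticoid receptor and its targets, of 8 genes measured 0 rose and 3 fell, with a median of -0.04, and without library 4 1 rose and 3 fell. With all libraries 37.5% of the list was called, less than the 48.1% of all genes called. Zbtb16, a zinc finger factor induced by glucocorticoids, was 2.09-fold lower, Tsc22d3, the glucocorticoid-induced leucine zipper, 1.67-fold lower and Nr3c1, the receptor, 1.25-fold lower (limma adjusted p 0.00598, 0.00107 and 0.00336). Fkbp5 was not called with all libraries, at a log2 fold change of 0.46 ± 0.26 (SE; limma adjusted p 0.158), although its lowest dexamethasone library, at 6.02 log2 CPM, lay above its highest saline library, at 6.01. Without library 4 it was the gene that rose, at 0.26 ± 0.055 (SE; limma adjusted p 0.00123). In library 4, which is 1 mouse, the metallothioneins, Slc39a14 and most genes of the receptor list stood high. Mt1 was 1.44, Mt2 1.37 and Slc39a14 1.18 log2 units above the mean of the other 8 dexamethasone libraries there. On the receptor list Fkbp5 was 1.80, Zbtb16 1.75, Tsc22d3 0.87, Klf9 0.69, Per1 0.66 and Sgk1 0.52 above it. Dusp1 was 0.16 above and ranked 4 of 9, and Nr3c1, at -0.39, ranked 9. Whether these share a cause was not tested. The other 6 transporters were within 0.20 of that mean. Without library 4, Mt1, Mt2 and Slc39a14 were still called (limma adjusted p 2.63e-06, 2.17e-07 and 3.48e-08).

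**Figure D4:**
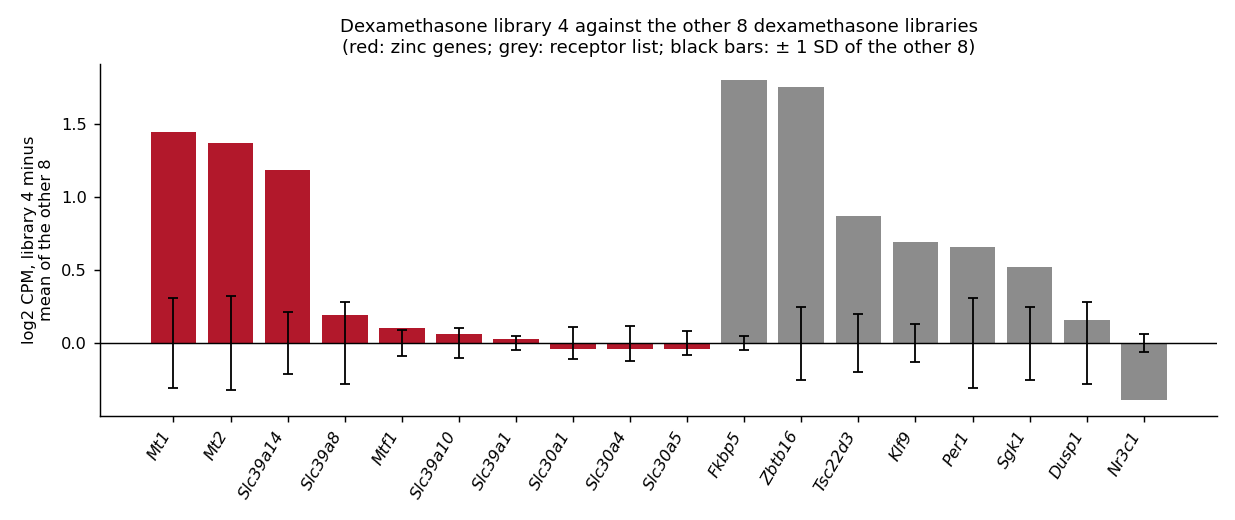
Difference in log2 CPM between dexamethasone library 4 and the mean of the other 8 dexamethasone libraries, for the 10 zinc genes (red) and 8 genes of the glucocorticoid receptor list (grey), with black bars at ± 1 SD of the other 8. Mt1, Mt2 and Slc39a14 rise 1.18 to 1.44 above the mean, the other 7 zinc genes stay within 0.20, and Nr3c1 lies 0.39 below.

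Cell type markers were read beside these values, against 48.1% of all genes called, 25.2% that rose and 22.9% that fell. With all libraries 53.3% of the fibre list was called, and every call was a fall. The macrophage, neutrophil, fibroblast and endothelial lists had smaller shares called than all genes, at most 41.7%. Of 15 mature fibre genes 0 rose and 8 fell, and of 12 macrophage genes 4 rose and 1 fell, with summed levels of 2563 to 3403 CPM with dexamethasone and 2148 to 3143 CPM with saline. Casq1, a calcium store protein of fibres, was 1.95-fold lower, and Mrc1, the mannose receptor of macrophages, rose 2.50-fold. Mrc1 was the largest change on its list, of which 7 genes were not called and the median log2 fold change was 0.04. The macrophage gene that fell, named after its value was seen, was Csf1r, at -0.18 (limma adjusted p 0.0482). Without dexamethasone library 4 Csf1r was not called (limma adjusted p 0.0598), and Mertk was the gene that fell, at -0.19 (limma adjusted p 0.0106). Of 8 neutrophil genes 1 rose and 2 fell, or 0 and 2 without dexamethasone library 4. Their summed levels were 22.6 to 45.8 CPM with dexamethasone and 22.9 to 248.8 CPM with saline. Saline library 3 alone held the 248.8, the other 3 saline libraries held 22.9 to 30.8, and without it 3 neutrophil genes rose and 0 fell. Mpo and Elane each had 0 reads in 1 library of each group. Of 10 fibroblast genes 0 rose and 2 fell (15160 to 21340 CPM with dexamethasone, 14860 to 20800 with saline), and of 8 endothelial genes 0 rose and 1 fell, or 3 without dexamethasone library 4 (341 to 407.7 CPM with dexamethasone, 349.6 to 413.6 with saline). Of 7 liver genes 2 were measured and both rose, or 1 without saline library 3, at 2.08 to 7.68 summed CPM with dexamethasone and 0.771 to 2.37 with saline, with Apoc3 at 0 reads in 1 saline library. With the mean of the fibre genes as a covariate, 3 of the 10 zinc genes were called, against 2836 of all 14911 genes. The 3 were Mt2 at a log2 fold change of 1.74 (limma adjusted p 0.00876), Slc39a14 at 1.38 (limma adjusted p 0.00851) and Mt1 at 1.41 (limma adjusted p 0.0309). The 6 other transporters were then not called, at 0.14 to 0.24. That fibre mean was 12.06 to 12.64 log2 CPM with dexamethasone and 12.75 to 13.27 with saline, ranges that did not overlap. The covariate therefore separates the groups, so this fit can hardly tell it from group, and the part of fibre content in these 6 rises was not tested.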

How the data were processed

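Libraries from 9 dexamethasone and 4 saline mice were compared, grouped by the labels. Per the labels' protocols, polyadenylated RNA was made into stranded libraries. Per the submitters' processing notes, featureCounts 2.0.1, limma 3.50.1 and build mm10 were used. Not given in the sources used here were the aligner, the annotation behind the counts and any low-expression filter. The authors deposited log2 CPM values, normalised with and without an excluded saline mouse, whose 1 column was not used here, and log2 fold changes with adjusted p-values of their own comparison. Results come from the table normalised without that mouse (14911 genes), whereas its counterpart listed 14970. Whole reads came back from 100% of its values, within 0.01, with an offset of 0.5 reads. Of 7010 genes with an adjusted p under 0.05 in the authors' deposited table, 6944 were called here too.

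The log2 values were fitted with limma 3.58.1 (R 4.3.3), with 2 groups, an intensity trend and Benjamini-Hochberg adjustment over all genes, two-sided. Whether the mice were housed or processed in batches is not given in the labels. Single differences were tested by exact permutation of the group labels. Figures used matplotlib 3.10.9. On simulated data of this comparison over 14911 genes, limma found 89 of 100 genes raised by 1 log2 unit and 58 of 100 genes with a log2 change of -0.5, with 3 of 150 calls false. Only those genes were changed there, and the noise was normal and independent between genes. In the real data 48.1% of genes were called and some libraries stood apart, so these rates need not hold for them. Recovered reads of any 2 libraries in a group (42 pairs) differed by a chi-square of 7.22 or more per gene, so each counted as 1 sample.

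The 10 members and all lists were chosen with earlier results of these data known. Genes named are the members, the 3 called genes of largest change per list, fixed regulators, and the 5 genes most correlated with Mt1 and with Mt2, leaving out predicted genes and Riken clones. For cell type markers, 1 such gene is written out for fibres and 1 for macrophages. Promoter sequences are RefSeq's (GRCm38.p6), matched by symbol and Entrez identifier. Alternatives were the other table, log2 of CPM plus 1, a filter at a mean log2 CPM of 1, median centring, quantile normalisation, robust moderation or none of the trend, weights per library, exact rank sum tests, voom on the recovered reads, a block for the mouse number, the fibre covariate and each of 13 libraries left out.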

Additional observations from a re-analysis of the deposited data

Results flagged for a closer look

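In 20 groups of values (10 genes in 2 groups), a library far from the rest of its group was found in 3, where chance gives about 1 in 20. In dexamethasone libraries, Slc39a14 in library 4 stood apart from the next library by 0.631 of the range of its group (critical value 0.493 for 9 libraries). In saline libraries, library 5 stood apart upward for Mt1, by 0.923 of the range (critical value 0.829 for 4 libraries), and for Slc30a5, by 0.893. Leaving out saline library 5 gave a log2 fold change of 1.69 for Mt1 and 0.38 for Slc30a5, against 1.58 and 0.30 with all libraries.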

How the results depend on the processing

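Of the 10 genes, 9 were called as higher in each of 13 fits with 1 library left out and in each other alternative except the fibre covariate, with which 3 were called. Over all genes, 7173 were called, 6306 to 7173 with 1 library left out, 5959 on 8 libraries with the mouse number as a replicate block (6124 on the same 8 without it) and 2836 with the fibre covariate. Log2 fold changes with 1 library left out ran from 1.43 to 1.69 for Mt1, 1.85 to 2.09 for Mt2, 1.53 to 1.72 for Slc39a14 and 0.77 to 1.10 for Slc39a8. Same-numbered mice of the 2 groups correlated at -0.0936 to 0.203 in their deviations, and only number 5, at 0.203, matched its own number best. These correlations cannot tell whether same-numbered mice shared a cage or a batch. With the replicate block, 9 of the 10 genes were called, as on the same 8 libraries without it, an alternative added after seeing the data, as were the counts of list genes without dexamethasone library 4 or saline library 3. Over the 4 pairs the excess of Mt2 over Mt1 changed by 0.44 (adjusted p 0.188), of Slc39a14 over Slc39a8 by 0.76 (adjusted p 0.25) and of Slc30a4 over Slc30a1 by -0.14 (adjusted p 0.188), by an exact paired permutation test whose smallest p is 0.125. With 1 library left out these changes ran from 0.39 to 0.44, from 0.60 to 0.88 and from -0.14 to -0.073. The r of Mt1 with Mt2 ran from 0.965 to 0.994, whereas the relations of Slc39a14, chosen after seeing the data, had an r of 0.147 with Mt1 and 0.224 with Mt2 without library 4 (exact permutation p 0.732 and 0.591). That with Mt1 also lost its call without library 2, 5 or 9 (r of 0.802, 0.805 and 0.833; exact permutation p 0.0526, 0.0799 and 0.0537), and that with Mt2 without library 5 (r of 0.812; exact permutation p 0.0713). Depth limits Slc39a8 most, at 36 reads in the lowest library.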
